A study of Mus musculus with 60 samples.

Results

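The genes of 3 families of conjugating enzymes were followed through tumours and normal tissues of mice that carry a CD74-NRG1 fusion: the glutathione transferases (Gst), the UDP-glucuronosyltransferases (Ugt) and the cytosolic sulfotransferases (Sult). They were chosen by symbol alone, as every row of the tissue table named Gst with class a, m, p, t, k, o or z, Ugt with class 1a, 1b, 2a or 2b, or Sult with a family number and letter. This gave 62 of 54838 genes, of which 22 were Gst, 19 Ugt and 21 Sult genes. Over the 42 tissue libraries, 2 of the 62 had no count, 7 never passed 1 CPM (counts of a gene per 1000000 counts of its library), and 50 passed 5 CPM in at least 1 library.

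Gene expression was measured by sequencing transcript 3′ ends in 42 libraries from 9 mice of a line labelled Rosa26CD74-NRG1/Flp. By the design text, the fusion sits in the Rosa26 locus behind a stop cassette that Flp recombinase removes early in the embryo, and expression in nearly all tissues was intended. The tumours were 3 liver tumours (mice M00236, M00248 and M00249), 7 sarcoma libraries of 6 mice, and 2 libraries of an intestine tumour of mouse M00247. The normal tissues were 8 livers, 7 lungs, 6 spleens, 6 muscles, 2 brains and 1 kidney of mice of the same line. By the labels the normal tissues thus carry the fusion too, and no tissue library came from mice labelled as lacking it. The counts of Nrg1 set mouse M00246 apart. Its liver, lung, spleen and muscle held 0.675, 5.37, 2.34 and 1.3 CPM, each the lowest of its tissue, against 27.6 to 83.3 CPM in the other livers, 8.93 to 111.4 CPM in lungs, 8.16 to 26.9 CPM in spleens and 26.4 to 38.5 CPM in muscles. The libraries of M00246 thus go against a uniform expression of the fusion, as far as Nrg1 reads stand for it, and results are also given without them. The 12 tumour libraries held 15.7 to 100.6 CPM of Nrg1. No age of the mice was stated in the labels.

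Conjugating enzymes attach a water-soluble group to drugs, hormones, bile acids and reactive by-products of metabolism, which marks them for export into bile or urine. Glutathione transferases add glutathione, UDP-glucuronosyltransferases add glucuronic acid from UDP-glucuronate, and sulfotransferases add sulfate from an activated donor. Hepatocytes are known as the main site of all 3 reactions. In mice several of these genes also differ between males and females, under the control of growth hormone.

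Total counts per library lay between 4837478 and 10089600, so that a count of 0 allowed up to 0.297 to 0.62 CPM, for counting error only. Hepatocyte genes summed to 35788 to 126032 CPM in liver tumours and 64664 to 114253 CPM in normal livers. Of the 20 listed, 19 passed the count filter of the liver comparison. None of these 19 was at 0, although 7 of the 19 fell in the tumours. Skeletal muscle genes summed to 31.9 to 5757 CPM in sarcomas and 20798 to 38688 CPM in normal muscles. The muscle libraries also held 18939 to 44742 CPM of surface epithelium genes, such as keratins, against 438.1 to 6788 CPM in sarcomas. All libraries of M00247 stood apart in sex-linked genes, as given below for its liver. These are bulk samples, in which fewer cells of a type and less RNA per cell cannot be told apart.

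Reads near transcript ends do not separate all family members. Words of 50 bases in the last 300 bases of the annotated transcripts were shared with other genes completely for 8 of the 9 Ugt1a genes, which are known to use common last exons. The share was 76.7% for Gstp1 and 83.8% for Gstp2, mostly with each other, and 82.1% for Gsta1, mostly with Gsta2 and the gene models Gm3776 and Gm10639. Sult2a2 and Sult2a5 shared 76.9% and 72.5%. Gstm3, Gsta3, Gsta4, Gstm4, Sult2a7, Ugt2b1 and Ugt2b35 shared no such word of their own ends, and Sult2a8 shared 3.09%. Gstm1 shared 23.0% of its end words with transcripts of Gstm3, Gm8834 and Gstm2-ps1, and was not merged with them. Values of single Ugt1a, Gstp and Gsta1 or Gsta2 genes are therefore uncertain, and merged values are given beside most of them.

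The normal tissues were compared first, to place each enzyme. In 1 edgeR fit of 5 tissues, 34 of the 47 members tested were highest in liver, that is, higher there at an adjusted p under 0.05 against each of the other 4 tissues. The same held for 11.7% of all 20099 genes tested. The muscle was highest for 5 members, or 10.6% (6.96% of all genes), and the brain for 2 (11.7% of all genes). Those of muscle were Sult2b1, Gstp2, Gsto1, Gsta1 and Gsta4. Merged with Gstp1, however, Gstp2 was higher in liver than in muscle (log2 fold change 2.61, adjusted p = 2.3e-08). Gsta1 merged with Gsta2, Gm3776 and Gm10639 did not differ between liver and muscle (0.07, adjusted p = 0.93). Gsta2 alone was called highest in liver. No member was highest in lung (5.2% of all genes) or spleen (8.49% of all genes). For these 2 tissues the count was also 0 at an unadjusted p under 0.05 and with DESeq2.

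The 22 Gst genes summed to 7315, 10304 and 9356 CPM in the liver tumours, against 1686 to 6043 CPM in normal livers. All 3 liver tumours lay above every normal liver. The 21 Sult genes summed to 333.8, 305.2 and 347.0 CPM in the liver tumours, against 442.8 to 667.0 CPM in normal livers, so that all 3 tumours lay below every normal liver. The 19 Ugt genes summed to 3110.0, 1489.7 and 2553 CPM in the tumours, within the 1168 to 3047 CPM of normal livers except for tumour M00236, which was slightly above. These sums are carried by a few abundant genes and were not tested.

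**Figure D1:**
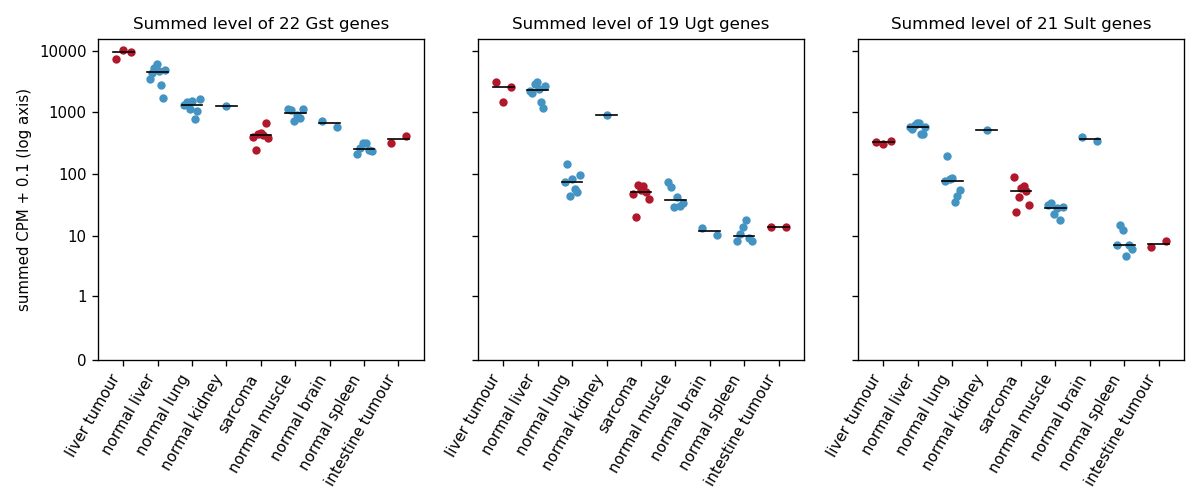
Summed CPM of the Gst, Ugt and Sult genes on a log axis, 1 point a library and a black line at each group's median; tumours are red and normal tissues blue. Liver tumours lie above the normal livers for Gst and below them for Sult, while Ugt sums overlap except for 1 tumour.

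Ugt2a and Ugt2b genes were almost confined to liver and kidney in the tissues measured. They summed to 667.6 to 2094 CPM in normal livers and 566.8 CPM in the 1 kidney, against at most 16.8 CPM in any lung and at most 6.79 CPM in spleen, muscle or brain. Ugt2b1, an enzyme that glucuronidates steroids and drugs, ranged from 59.8 to 556.8 CPM over 8 livers and stayed at or under 2.42 CPM in every other normal library. Its smallest log2 fold change of liver against another tissue was 9.43, with a largest adjusted p of 2.3e-09. The kidney held other genes of the family. It had 338.1 CPM of Ugt2b38 and 202.3 CPM of Ugt2b37, against at most 7.45 and 39.5 CPM in the livers. A single kidney library allows no test.

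The sulfotransferases divided among tissues. Sult2a8, of the hydroxysteroid and bile acid sulfating group, was at 7.8 to 301.3 CPM in livers and at or under 1.36 CPM in the other normal tissues (smallest log2 fold change 9.12, adjusted p = 4e-08). Sult4a1, a brain sulfotransferase with no well-established substrate, was at 384.4 and 337.2 CPM in the 2 brains and at most 1.95 CPM elsewhere among normal tissues (8.62, adjusted p = 5.1e-11). Sult1d1, which sulfates catecholamines, was at 84.2 to 172.2 CPM in livers, 1.76 to 37.8 CPM in lungs and 467.7 CPM in the kidney. Sult2b1, known for making cholesterol sulfate in skin, was at 9.51 to 24.7 CPM in muscles and at most 1.97 CPM in the other normal tissues (3.69, adjusted p = 0.00014). The muscle libraries were also those with the keratins, and the part of skin in this value was not tested.

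Glutathione transferases were spread more widely. Gsta3, an alpha-class enzyme, was at 330.8 to 1442 CPM in livers and 98.5 to 429.7 CPM in lungs, with at most 12.1 CPM in spleen, muscle and brain. Gstz1, which isomerizes an intermediate of tyrosine breakdown, was at 229.6 to 451.5 CPM in livers and at most 49.4 CPM in lung, spleen, muscle and brain. Gstm5 was highest in brain, with 114.5 and 108.6 CPM (smallest log2 fold change 1.24, adjusted p = 0.025), against 8.57 to 13.7 CPM in livers. The kidney library held 113.7 CPM of it. Gsto1, an omega-class enzyme that reduces disulfides and dehydroascorbate, was highest in muscle at 170.5 to 464.9 CPM (2.03, adjusted p = 4.6e-10), with 66.9 to 134.5 CPM in lungs and 44.2 to 73.0 CPM in livers, which overlapped. Leaving out either brain reduced the members highest in muscle to 3 and those highest in brain to 1. Without the libraries of M00246, 33 members were highest in liver, 5 in muscle and 1 in brain, where Gstm5 lost its call (adjusted p = 0.05).

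Liver tumours were then compared with normal livers, 3 against 8. Of the 43 members tested, 7 were higher in the tumours, among 6.98% of all 13253 genes, and 4 were lower, among 3.64% of all genes (edgeR quasi-likelihood test, adjusted p under 0.05). The higher ones were all glutathione transferases: Gsta1, Gsta4, Gstm1, Gstm3, Gstm4, Gstm5 and Gstp2. The lower ones were the sulfotransferases Sult2a7 and Sult2a8, the glucuronosyltransferase Ugt2b1 and the mitochondrial and peroxisomal glutathione transferase Gstk1. The members' median log2 fold change was 0.35, beside 0.09 over all genes.

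Gstm3, a mu-class glutathione transferase, had the smallest adjusted p of the members. It was at 474.4, 100.2 and 337.5 CPM in the liver tumours of M00236, M00248 and M00249. In the normal livers it was at 9.82 to 40.5 CPM, with a mean of 23.3 ± 10.5 CPM (SD, n = 8). Every tumour lay above every liver, with a log2 fold change of 3.53 ± 0.44 (SE) and an adjusted p of 0.0005. Tumour and own liver could be set side by side in 2 mice, with 474.4 against 40.5 CPM in M00236 and 100.2 against 24.1 CPM in M00248. Gstm1, the most counted mu-class gene, was at 1765, 3689 and 3839 CPM in tumours and 400.1 to 1489 CPM in livers (1.39 ± 0.40, adjusted p = 0.041). Gstm4 was at 85.7, 50.3 and 78.6 CPM in tumours and 18.9 to 39.7 CPM in livers (1.08 ± 0.28, adjusted p = 0.028). Neither of these overlapped between the groups, while Gstm5, at 12.5 to 24.4 CPM in tumours and 8.57 to 13.7 CPM in livers, did (0.70 ± 0.20, adjusted p = 0.043).

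Among the alpha class, Gsta1 rose furthest. It was at 34.3, 510.3 and 178.6 CPM in the tumours of M00236, M00248 and M00249, against 0 to 11.9 CPM in the livers (5.61 ± 0.88, adjusted p = 0.0022). Merged with Gsta2, Gm3776 and Gm10639, whose ends it shares, the level was 104, 766 and 462 CPM in tumours and 1.01 to 84.7 CPM in livers, with a log2 fold change of 3.46 ± 0.79 and an adjusted p of 0.015. The merged groups did not overlap either. Gsta4, which detoxifies aldehydes from oxidized lipids, was at 86.6, 396.2 and 62.2 CPM in tumours and 4.91 to 60.3 CPM in livers (2.24 ± 0.65, adjusted p = 0.044). In plain CPM its lowest tumour, M00249, lay just above its highest liver, M00238. With the TMM factors of the fit, 1.16 for that tumour and 0.892 for that liver, the groups overlap. Gsta3, by contrast, was at 1878, 336.6 and 1212 CPM in tumours and 330.8 to 1442 CPM in livers, and did not pass the test (-0.06 ± 0.53, adjusted p = 0.96).

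The pi class, known in rats for a placental form that marks early liver lesions, gave an unequal picture. Gstp2 was at 0, 760.6 and 579.7 CPM in the tumours of M00236, M00248 and M00249, against 0 to 18.9 CPM in livers (5.99 ± 1.44, adjusted p = 0.019). The tumour of M00236 thus lay within the livers and the others far above them. Gstp1 was at 1613, 3842 and 2432 CPM in tumours and 365.5 to 1976 CPM in livers, without passing the test (1.25 ± 0.48, adjusted p = 0.12). Both genes merged did not pass it (1.47 ± 0.49, adjusted p = 0.074), so the call of Gstp2 depends on how the deposited counts divide reads between them.

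**Figure D2:**
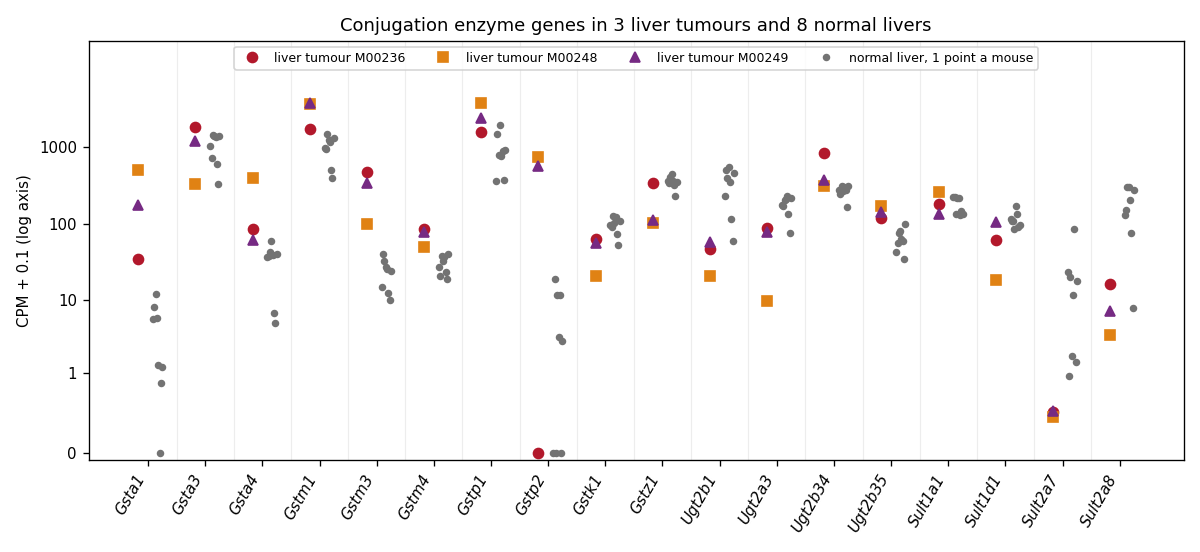
CPM of 18 conjugation enzyme genes on a log axis, with 3 coloured symbols for the liver tumours left of 8 grey points for the normal livers. All 3 tumours lie above the livers for Gsta1 and Gstm3 and below them for Sult2a7 and Ugt2b1, while Gstp2 is at 0 in tumour M00236.

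Both sulfotransferases that fell belong to the group that sulfates hydroxysteroids and bile acids. Sult2a8 was at 16.2, 3.37 and 7.09 CPM in the tumours of M00236, M00248 and M00249. In livers it was at 75.0 to 301.3 CPM in 7 mice and at 7.8 CPM in M00247 (-4.54 ± 1.01, adjusted p = 0.013). Only that 1 liver reached the level of the tumours. Ugt2b1 was at 46.9, 20.9 and 58.0 CPM in tumours and at 59.8 to 556.8 CPM in livers, where M00247 was again lowest (-3.20 ± 0.69, adjusted p = 0.012). The groups did not overlap. Sult2a7 had 2 counts in each tumour, or 6 in all, against 8 to 637 counts in each liver. Its pooled level in tumours was 1.18% of that in livers, with an exact 95% interval of 0.431 to 2.57% for counting error only (-6.57 ± 1.73, adjusted p = 0.029). The library labelled normal liver of M00246 gave 637 of the 1247 pooled liver counts, and without it the ratio was 2.13% (0.779 to 4.66%). The called members fell beside liver markers. Of 19 hepatocyte genes 7 were lower (median log2 fold change -0.93), and of 11 periportal genes 4 were lower (-1.04, beside 0.09 over all genes), with periportal sums of 823.8, 1959 and 3772 CPM in the tumours of M00236, M00248 and M00249 and 4109 to 6368 CPM in livers. No hepatocyte or periportal gene was at 0 in the tumours, and the part of these in the falls was not tested. Gstk1 was at 63.1, 20.5 and 56.0 CPM in tumours and 53.3 to 127.8 CPM in livers, with overlap (-1.24 ± 0.37, adjusted p = 0.047).

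The other glucuronosyltransferases tested did not pass the threshold. Ugt2b35 was at 118.9, 173.0 and 142.0 CPM in tumours and 34.4 to 100.1 CPM in livers. Its groups did not overlap, but the test was just missed (0.96 ± 0.31, adjusted p = 0.063). Ugt2b34 was at 836.4, 316.4 and 375.5 CPM in tumours and 165.2 to 315.7 CPM in livers (0.74 ± 0.31, adjusted p = 0.15). Ugt2a3 was at 87.6, 9.71 and 77.9 CPM in tumours and 75.2 to 228.8 CPM in livers (-1.80 ± 0.56, adjusted p = 0.057). The Ugt1a genes, which include the bilirubin-conjugating Ugt1a1, gave 894, 456 and 997 CPM when merged in tumours and 365 to 953 CPM in livers (0.01 ± 0.34, adjusted p = 0.99). Of the 5 tested Sult1 genes, which sulfate phenols, catecholamines and estrogens, Sult1d1 came nearest to the threshold (-1.08 ± 0.40, adjusted p = 0.11), with 61.3, 18 and 106.5 CPM in tumours and 84.2 to 172.2 CPM in livers. The most counted, Sult1a1, was at 135.6 to 260.5 CPM in tumours and 129.3 to 225.1 CPM in livers.

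**Figure D3:**
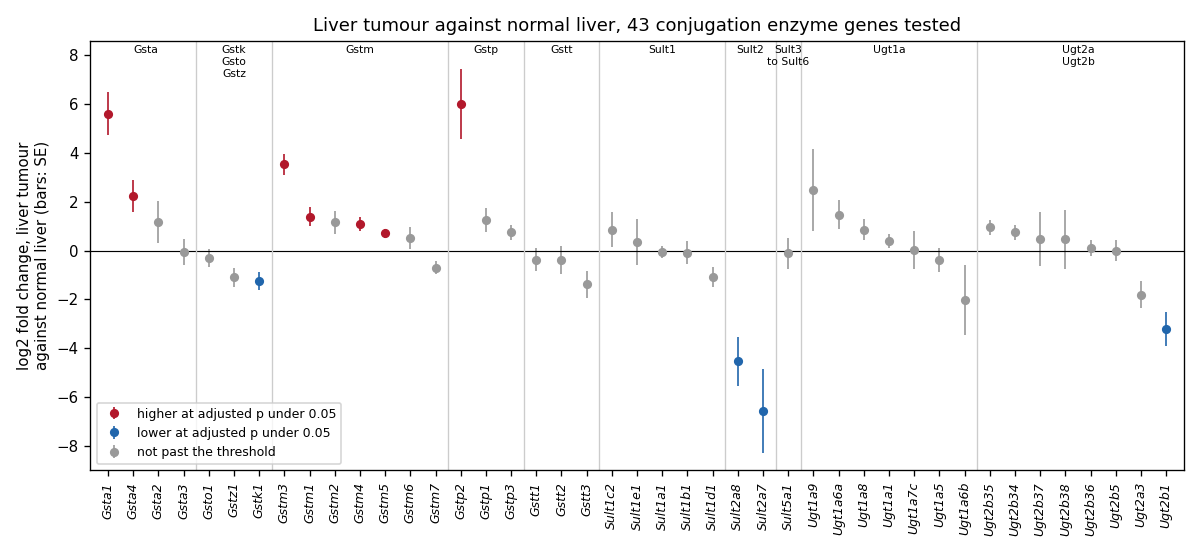
Log2 fold changes of liver tumour against normal liver for the 43 members tested, by family, with SE bars; red points are higher, blue points lower and grey points not past an adjusted p of 0.05. Red points occur in the Gsta, Gstm and Gstp classes, and blue points in Gstk, Sult2 and Ugt2b.

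These calls rest on few tumours. Without the tumour of M00248, 3 members were called higher and 0 lower, with 11 and 9 at an unadjusted p under 0.05, and leaving out the normal liver of M00235, M00236, M00238, M00245 or M00246 also left 3 or 4 higher. Without the normal liver of M00247, 7 were called lower, and without that of M00246, 3 higher and 4 lower. With the mouse as a block, which only 2 mice inform, edgeR called 0 members and 0 genes, while 4 members were higher and 6 lower at an unadjusted p under 0.05. Over 20 alternatives, Gsta1 and Gstm3 lost the call only under that block, with adjusted p = 0.5 and adjusted p = 0.4, and Sult2a8 and Ugt2b1 also without the tumour of M00248. Gstp2 lost it under the block, with DESeq2 and without the tumour of M00248, and Sult2a7 under the block and without any 1 of the 3 tumours. Gstm5, Gstm1, Gsta4, Gstk1 and Gstm4 lost it under 14, 11, 9, 9 and 7 of the 20 alternatives.

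The 3 tumours differed from each other in which members left the range of the 8 normal livers. In the tumour of M00236, 16 of the 43 members were above it and 4 below, beside 30.6% and 21.8% of all genes. In the tumour of M00248, 13 were above and 12 below, beside 31.6% and 16.9% of all genes. In the tumour of M00249, 18 were above and 5 below, beside 33.5% and 10.6% of all genes. All 3 tumours were above the range for 7 members, beside 8.28% of all genes, and below it for 2, beside 2.54%. With TMM-scaled CPM, 11 members were below the range in M00249, beside 18.7% of all genes, and 5 members were above it in all 3 tumours, beside 5.49% of all genes.

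The tumour of M00236 was the one highest in Gstm2 (321.6 CPM, against 70.3 and 42.8 CPM in the other two), Gstm3, Gstm6 (177.3 CPM, against 57.0 and 54.3 CPM) and Gstt1 (227.3 CPM, against 115.3 and 63.2 CPM). It also had 3695 CPM of Glul, the glutamine synthetase of pericentral hepatocytes, against 51.9 and 148.0 CPM in the tumours of M00248 and M00249 and 565.2 to 802.2 CPM in livers. The 12 listed pericentral genes summed to 10695, 380.5 and 1075 CPM in the tumours of M00236, M00248 and M00249, against 2074 to 6152 CPM in livers, with none at 0. The tumour of M00248 was highest in Gsta1, Gsta4 and Gstp1 and lowest in Gsta3, Ugt2a3 and Sult1b1. It had 364.2 CPM of the fetal liver protein gene Afp, against 0.405 to 1.8 CPM in livers. The tumours of M00236 and M00249, at 11.4 and 17.9 CPM of Afp, also lay above the livers. The 10 listed bile duct genes summed to 47.7, 1633 and 355.1 CPM in the tumours of M00236, M00248 and M00249, against 21.9 to 165.0 CPM in livers, and 3 of the 4 tested rose. None of these 10 was at 0 in the tumours. The part of cell type in the members' levels was not tested.

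Genes that serve the same reactions were examined beside the enzymes. Of 14 tested genes of glutathione supply, 3 rose and 1 fell (median log2 fold change 0.31, beside 0.09 over all genes). Slc7a11, the cystine transporter, was at 1.44, 244.0 and 11.0 CPM in the tumours of M00236, M00248 and M00249 and at most 0.204 CPM in livers (9.09 ± 1.12, adjusted p = 0.00049). All 3 tumours lay above the livers, and the tumour of M00236 held far less of it than the other two. Gclc, the catalytic subunit of the rate-limiting enzyme of glutathione synthesis, was at 213.1, 805.7 and 371.5 CPM in tumours and 86.1 to 250.8 CPM in livers (1.47 ± 0.38, adjusted p = 0.028). Ugdh, which makes UDP-glucuronate, was at 306.3, 228.2 and 224.6 CPM in tumours and 42 to 116.5 CPM in livers (1.59 ± 0.28, adjusted p = 0.0036) and was the only one to pass of 9 tested in its list.

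Of 17 export and uptake transporters, 4 rose, 3 fell and 10 did not pass the test (median 0.17, beside 0.09 over all genes). Abcc4, which exports conjugates into blood, was at 14.1, 33.2 and 34.7 CPM in tumours and 0.791 to 3.44 CPM in livers (3.87 ± 0.42, adjusted p = 0.00024). Slc10a1, the bile acid uptake carrier of hepatocytes, was at 49.8, 3.57 and 16.6 CPM in tumours and 158.8 to 377.3 CPM in livers (-3.76 ± 0.72, adjusted p = 0.0063). Of 24 other conjugation and oxidation enzymes, 1 rose, 2 fell and 21 did not pass the test (median -0.53). Nqo1, a quinone reductase, was at 25.1, 73.2 and 26.8 CPM in tumours and 1.88 to 6.18 CPM in livers (3.24 ± 0.36, adjusted p = 3e-04). In Abcc4, Slc10a1 and Nqo1 the groups did not overlap. Among 20 regulators, 4 fell, including the bile acid receptor Nr1h4 (-1.43 ± 0.28, adjusted p = 0.0073) and the aryl hydrocarbon receptor Ahr (-1.39 ± 0.37, adjusted p = 0.031). Slc7a11, Gclc, Nqo1 and several Gst genes are known targets of the oxidant-responsive factor Nfe2l2. The mRNA of Nfe2l2 was at 126.3, 144.6 and 116.2 CPM in tumours and 55.9 to 94.5 CPM in livers (0.55 ± 0.18, adjusted p = 0.071). The part of Nfe2l2 in the levels of the other genes was not tested.

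Upstream windows of the members were searched for short motifs known for factors of these genes, in the RefSeq promoter table of build GRCm38.p6, which covers 250 bases before to 50 bases after each gene's start. Of the 62 members, 55 had a window, some of them more than 1. The AP-1 motif was searched as TGANTCA, with any base allowed in the middle, and this pattern reads the same on both strands. It was in 13 of 66 member windows, beside 7.81% of all 32851 windows. The antioxidant response element core TGACNNNGC, on either strand, was in 3 of 66, beside 12.4% of all. The STAT5 motif TTCNNNGAA was in 4 of 66 (8.3% of all) and the C/EBP motif TTGCNNAA in 13 of 66 (10.8% of all), both searched on either strand. The AP-1 matches of members called in the liver comparison, of Ugt2b35, and of Gstp1 because its window repeats that of Gstp2, and the core in Gstm5 are shown with the match in capitals, 5′ to 3′ on the gene's strand.
Gstp1, chr19:4037968-4037997, minus strand: ctccaacgtgtTGAGTCAgcatccggggcg
Gstp2, chr19:4042292-4042321, minus strand: ctccaacgtgtTGAGTCAgcatccggggcg
Gstm5, chr3:107895667-107895696, plus strand: actgtgcaacaTGACTCAcgcttcccgggt
Gstm5, chr3:107895802-107895831, plus strand, antioxidant core: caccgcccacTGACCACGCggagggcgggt
Ugt2b1, chr5:86926706-86926735, minus strand: agaaaaagaagTGAATCAattgtagctcaa
Ugt2b35, chr5:87000610-87000639, plus strand: tctaTGATTCAaaactcctgtaaacaggtt
Sult2a8, chr7:14438539-14438568, minus strand: gttgagacagaTGAATCAgtaagtagttca
The 30 bases around the match are identical in Gstp1 and Gstp2, where the match begins 74 and 89 bases before the start. Matches to this loose AP-1 pattern were in members that rose, Gstp2 and Gstm5, and in members that fell, Ugt2b1 and Sult2a8. The middle base differed, with G in Gstp2, C in Gstm5 and A in Ugt2b1 and Sult2a8. A pattern with a fixed middle base was not searched, so a direction cannot be read from these matches. No AP-1 match lay in the windows of the other called members, which says nothing about binding there.

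Single normal livers differed strongly in a few sulfotransferases. Sult2a1, Sult2a2, Sult2a5 and Sult2a6, which sulfate steroids and bile acids and are known as female-predominant in mouse liver, were at 17.9, 43.9, 19.1 and 5.2 CPM in the liver of M00247 and at most 0.229 CPM in the other 7. Sult3a1, also female-predominant, was at 79.0 CPM in M00247, 24.1 CPM in M00235 and at most 0.225 CPM in the other 6. The liver of M00247 had 124.7 CPM of Xist and 0.866 CPM of Ddx3y, against at most 0.612 CPM of Xist and 69.1 to 99.5 CPM of Ddx3y in the other 7 livers. Cyp3a41a, a female-predominant cytochrome, was at 1115 CPM in M00247, 10.3 CPM in M00235 and at most 1.22 CPM in the others, and A1bg was at 103.2, 244.5 and at most 6.75 CPM. The liver of M00235, with its Ddx3y at 80.8 CPM, thus held part of these transcripts. Sult2a7 followed another order, with 86.1 CPM in M00246, 23.6 CPM in M00235 and 0.901 to 19.8 CPM in the other 6. The liver of M00247 was also lowest of the 8 in Gsta3, Gstm1, Gstm3, Gstt1, Gstz1, Sult2a8 and Ugt2b1. It also held the most macrophage gene counts of the 8, at 1880.2 CPM against 306.4 to 1372.8 CPM in the other 7, the most of cell division genes, at 232.0 against 23.8 to 119.9 CPM, and of T cell genes, at 24.5 against 1.85 to 13.7 CPM. Its bile duct genes summed to 165.0 CPM, against 21.9 to 91.9 CPM. Their part in the low values was not tested.

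**Figure D4:**
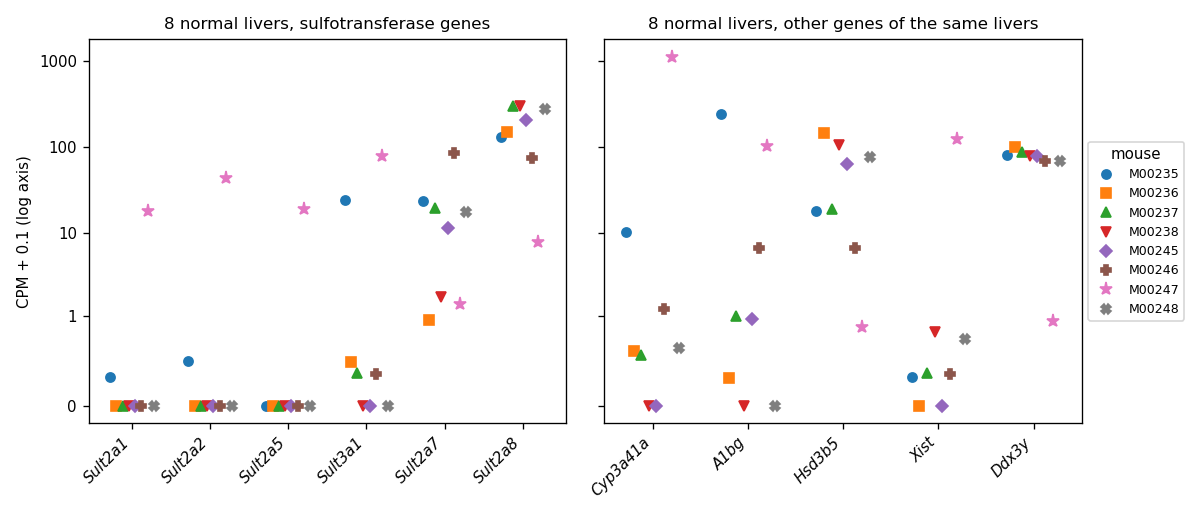
CPM on a log axis in each of the 8 normal livers, with 1 symbol a mouse, for 6 sulfotransferase genes (left) and 5 sex-related genes (right). The liver of M00247 is alone in Sult2a1, Sult2a2 and Sult2a5 and in Xist, M00235 joins it for Sult3a1 and A1bg, and M00246 is highest in Sult2a7.

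In the tumours, the merged Sult2a1 to Sult2a6 were at 0, 2.18 and 10.9 CPM for M00236, M00248 and M00249. Sult3a1 had no count in any of the 3. The 15 listed female-predominant liver genes summed to 206.8, 2807.3 and 362.5 CPM in these tumours. In livers that sum was 2036.6 CPM in M00247 and 121.5 to 858.3 CPM in the others, so tumour M00248 lay above every liver. Of the 11 listed genes tested, 0 passed the threshold in either direction. All 3 tumours held Ddx3y, at 28.2 to 85.4 CPM, and at most 0.694 CPM of Xist. With the normal livers of M00246 and M00247 left out, 9 of the 11 called members kept their calls.

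Sarcomas were compared with normal muscle, the nearest normal tissue by the labels, although the 2 differ in cell makeup. Of 25 members tested, 13 were lower in sarcomas, among 31.4% of all 14690 genes, and 1 was higher, among 33.6% of all genes. The members' median log2 fold change was -0.90, beside 0.06 over all genes. The TMM factors ran from 1.06 to 1.55 in sarcomas and from 0.652 to 0.801 in muscles, which moves a value of the fit downward in sarcomas relative to plain CPM.

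The largest falls were in Gsta4, Gsta1 and Gsto1. Gsta4 was at 0.724 to 9.34 CPM in 6 sarcoma mice (mean 4.21 ± 2.98) and 72.0 to 188.7 CPM in 6 muscles (mean 113.2 ± 51.6, SD), with a log2 fold change of -5.68 ± 0.47 and an adjusted p of 2.7e-07. Gsto1 was at 12.4 to 48.9 CPM in sarcomas and 170.5 to 464.9 CPM in muscles (-4.54 ± 0.33, adjusted p = 8.7e-08). Gsta1 was at 0 to 3.01 CPM in sarcomas and 8.4 to 24.7 CPM in muscles (-4.87 ± 0.61, adjusted p = 1.1e-05), and merged with its near copies at -4.80 ± 0.52 (adjusted p = 3.2e-06). Gstm1 was at 20.9 to 58.3 CPM in sarcomas and 148.6 to 218.3 CPM in muscles (-3.02 ± 0.19, adjusted p = 2.7e-08). In each of these the sarcomas lay below every muscle.

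Sult1a1, which sulfates phenols, was the 1 member that rose. It was at 14.8 to 79.6 CPM in sarcomas (mean 35.3 ± 24.2) and 4.54 to 9.84 CPM in muscles (mean 7.14 ± 2.03, SD), with a log2 fold change of 1.33 ± 0.39 and an adjusted p of 0.0077. Every sarcoma lay above every muscle. With the summed surface epithelium genes as a covariate, added after seeing the data, the log2 fold change was 0.12 (adjusted p = 0.93). That sum did not overlap between sarcomas and muscles, so the fit can hardly separate it from the groups and decides nothing here. Sult2b1 was at 0.145 to 8.13 CPM in sarcomas and 9.51 to 24.7 CPM in muscles (-3.70 ± 0.61, adjusted p = 0.00013). Gstp1 and Gstk1 were called lower at -0.67 ± 0.15 (adjusted p = 0.0013) and -0.98 ± 0.32 (adjusted p = 0.014), but their plain CPM did not fall. Gstp1 averaged 178.7 CPM in sarcomas and 145.6 CPM in muscles, and Gstk1 averaged 25.3 CPM in sarcomas and 24.3 CPM in muscles. The direction of Gstp1 and Gstk1 thus depends on the scaling. Gstm2, Gstm5, Gstm4 and Ugt1a7c, also called lower, overlapped between the groups in plain CPM. Their means were 32.2, 28.8, 3.67 and 2.17 CPM in sarcomas and 36.3, 30.2, 4.89 and 2.41 CPM in muscles. The size of these falls thus also depends on the scaling. Gstp1 and Gstp2 merged averaged 186.1 CPM in sarcomas and 198.4 CPM in muscles (-1.06 ± 0.16, adjusted p = 4.7e-05). The plain CPM of Gstp1 thus also depends on how reads are divided between the 2 genes.

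**Figure D5:**
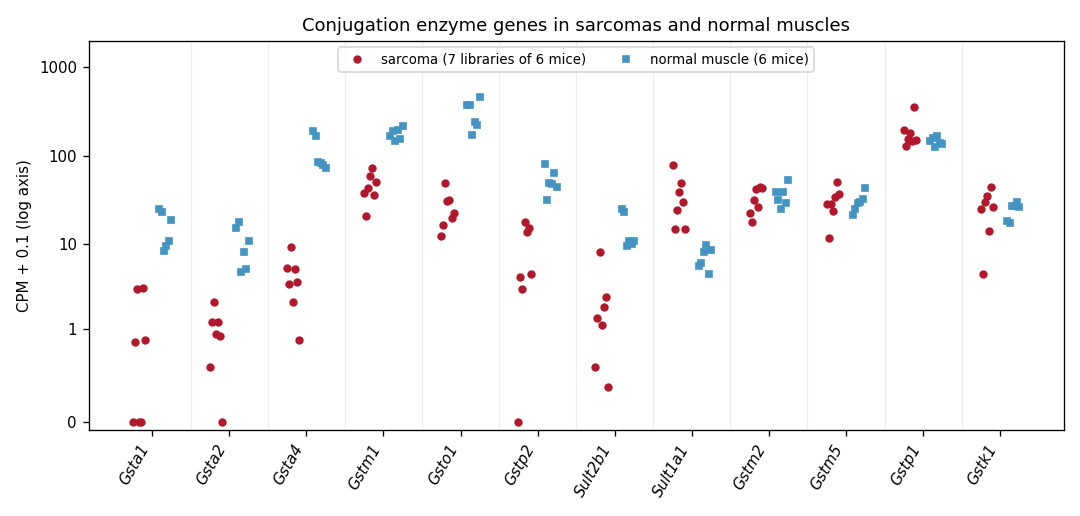
CPM of 12 conjugation enzyme genes on a log axis, with sarcoma libraries (red, left) beside normal muscles (blue, right). Sarcomas lie below muscles for Gsta1, Gsta2, Gsta4, Gstm1, Gsto1, Gstp2 and Sult2b1 and above them for Sult1a1, while the last 4 genes overlap.

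The muscle libraries held the surface epithelium genes given above, of which 8 of 10 tested fell in sarcomas. With their summed level as a covariate, an alternative added after seeing the data, 0 members were higher and 4 lower in edgeR, with 0 and 6 at an unadjusted p under 0.05. Over all genes, 1454 were higher and 1874 lower, instead of 4930 and 4613. The summed level did not overlap between sarcomas and muscles, so a call lost with it decides nothing about skin. Gsta4, Gsto1, Gstm1 and Gstm4 kept their calls with the covariate, while the log2 fold change was 0.11 for Sult2b1 and -1.51 for Gsta1 (adjusted p = 0.3). With the mouse as a block, 2 members were higher, and Gstk1 and Ugt1a7c lost their calls. Ugt1a7c (-1.13, adjusted p = 0.022) also lost it without the sarcoma of M00236 or the muscle of M00245, with an adjusted p of at most 0.33 over its alternatives. The Ugt1a genes merged were lower in sarcomas (-0.96 ± 0.26, adjusted p = 0.0056). Of 14 tested genes of glutathione supply, 11 were lower in sarcomas and 0 higher (median -1.32), among them Gclc (-1.06 ± 0.18, adjusted p = 0.00016) and Slc7a11 (-3.61 ± 0.70, adjusted p = 0.00047), a pair that was higher in the liver tumours against liver.

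The 2 intestine tumour libraries of M00247 came from 1 mouse and allowed no test. They had 201.9 and 194.7 CPM of Gstp1, 14.0 and 56.9 CPM of Gstm1, 30.8 and 31.3 CPM of Gstt2, and 23.1 and 30.2 CPM of Gsto1. No Ugt2b gene passed 1.33 CPM in them.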

How the data were processed

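Total RNA from frozen tissue sections and cultured embryonic fibroblasts was made into 3′ end libraries (Lexogen QuantSeq) and sequenced on a HiSeq4000, per the labels' protocols. For the aligner, counter, strand setting and genome build: not given in the sources used here. The deposited tables hold expected counts per gene, of which 8.35% of tissue values were not whole. These were rounded, which changed the total by 9.6e-05%, and CPM was computed from them. Rows without a symbol (85, at most 0.012% of a library) were left out, as was 1 fibroblast column that no sample label names.

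Genes were kept by filterByExpr with a minimum count of 10, scaled by TMM and tested with the quasi-likelihood test of edgeR 4.0.16 in R 4.3.3, with p-values adjusted by Benjamini-Hochberg across the genes of each fit (threshold 0.05). DESeq2 1.42.0 was an alternative. The standard error of a log2 fold change was taken as its size over the root of the F statistic. Liver tumours (3) were compared with normal livers (8), sarcomas (6 mice, with both libraries of M00245 summed) with muscles (6), and 5 normal tissues with each other in 1 fit. On simulated counts the fits recovered 67% of 4-fold changes for the liver comparison and 81% for the sarcoma comparison, and 12% and 26% of 2-fold changes.

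Same-numbered samples are from the same mouse by the labels. Their deviations from group means correlated at -0.15 and -0.14 in the 2 shared mice of the liver comparison and between -0.08 and 0.33 in the 4 of the sarcoma comparison. Samples of a group came from separate mice unless stated, and no 2 libraries were alike within sampling noise. Members and gene lists were chosen with earlier results of these data known. Described were Gstm3, Sult2a7 and Ugt2b35, up to 8 members in each direction with the largest changes, the most counted member of each family and those whose tumours disagreed most. Members named outside this rule were chosen after their values were seen. Intervals and floors (3 counts) cover counting error only.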

Additional observations from a re-analysis of the deposited data

Results flagged for a closer look

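Of 61 sets of values examined, 7 had a library or mouse far from the others of its group, and chance gives such a library in about 1 in 20 groups. In normal liver, Sult2a7 was at 86.1 CPM in M00246, beside 23.6 CPM in the next liver. Sult3a1 was at 79.0 CPM in the liver of M00247, beside 24.1 CPM in the next. Ugt2b37 was at 39.5 CPM in the liver of M00235, beside 8.66 CPM, and Ugt2b38 at 7.45 CPM in that of M00238, beside 3.49 CPM. In sarcomas, with the 2 libraries of M00245 summed, Gstk1 was lowest in M00236 at 4.53 CPM, beside 25.2 CPM in the next mouse, while 1 of the M00245 libraries alone was at 14.1 CPM. Sult2b1 was at 8.13 CPM in the sarcoma of M00237, beside 2.21 CPM, and Ugt1a7c at 5.28 CPM in that of M00238, beside 2.02 CPM.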

How the results depend on the processing

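Of 284 summary values recomputed, 36 moved past their test or by over 1.5 times, and the others did not. The cause was not tested. In the liver comparison, DESeq2 called 915 genes and 8 members lower. The block by mouse gave 0 genes and 0 members in either direction. Leaving out 1 library gave 566 to 1172 genes and 3 to 7 members higher, and 293 to 747 genes and 0 to 7 members lower. In the sarcoma comparison, 3 members were higher with no filter and 2 with the block by mouse. Leaving out 1 library gave 4817 to 5137 genes and 1 member higher, and 4539 to 4696 genes and 12 to 15 members lower. The covariate of surface epithelium genes, added after seeing the data, gave 1454 genes and 0 members higher, 1874 genes and 4 members lower, and 0.11 for the log2 fold change of Sult2b1. Its level did not overlap between sarcomas and muscles, so it can hardly be separated from the groups. Among normal tissues, 3 members were highest in muscle with DESeq2 and at a mean of at least 5 CPM, which left 1328 genes highest in brain. Leaving out a brain, also added later, gave 3 members highest in muscle, 1 in brain and 30 to 31 in liver. Leaving out the libraries of M00246, added after seeing their Nrg1, gave 1 member highest in brain. Below the range of normal livers, tumour M00249 had 11 members with TMM-scaled CPM and 12 with relative log expression scaling, beside 18.7% and 20.7% of all genes against 10.6% with plain CPM. Of 240 recomputed values of 12 members named in the liver comparison, 63 lost the call. Among the 12, Ugt2b35 had no call to lose. It stayed without a call in 17 of its 20 alternatives and gained 1 in the others, with a lowest adjusted p of 0.028. The block by mouse lost Sult1e1, Ugt2b38 and Sult3a1 among members highest in liver. Low counts limit Sult2a7, with 2 counts in each tumour. Merging genes with shared ends, chosen after seeing the data, left 6 features higher and 4 lower in the liver comparison.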

Other observations

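Cultured embryonic fibroblasts of the line (17 libraries of embryos labelled negative, heterozygous or homozygous for the fusion, at passage 1 or 3) held few conjugation enzyme genes. The sample of embryo 8 labelled negative at passage 3 had no matching column and is not among these libraries. Titles and group labels of embryo 8 disagree on the passage, and the group labels were used. The median passed 5 CPM for 7 of the 62 members, and 43 never passed 1 CPM. Gsto1 was at 59.9 to 168.2 CPM (median 106.8) and Gstp1 at 45.1 to 78.2 CPM (median 62.6). Gstm2 was at 8.02 to 32.1 CPM (median 16.0), Gstm5 at 7.89 to 18 CPM (median 12.8) and Gstz1 at 5.77 to 11.0 CPM (median 7.8). Genotypes were not compared here.

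The single kidney library held a set of its own. It had 467.7 CPM of Sult1d1, 298.1 CPM of Ugt1a9, 251.5 CPM of Gsta2, 124.2 CPM of Gstt2 and 41.3 CPM of Sult1c2. Merged, the Ugt1a genes were at 356.8 CPM, and Gsta1, Gsta2, Gm3776 and Gm10639 at 255.2 CPM, in this library. Its 22 Gst genes summed to 1248 CPM, its 19 Ugt genes to 923.6 CPM and its 21 Sult genes to 519.3 CPM. In the liver tumours Mgst3, a microsomal enzyme outside the named families, was at 68.8, 19.1 and 30.8 CPM, against 2.59 to 11.6 CPM in normal livers (2.41 ± 0.44, adjusted p = 0.0047), without overlap.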
